A study of Mus musculus with 3 samples.

Results

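Ccr2, Ccr7, Ccr9, Cxcr3, Cxcr4, Cx3cr1 and Xcr1, the chemokine receptors with which dendritic cells home, were followed through the dendritic cells of mouse spleen. These 7 genes were taken by name from the 31053 genes of the deposited matrix, and each name matched exactly 1 gene. The cells came from C57BL/6 spleens, either of leukemia-bearing mice or of wild-type (WT) mice, after 2 days of panobinostat (a histone deacetylase inhibitor) or vehicle. All were passed over a density gradient, sorted as GFP- cells and enriched by magnetic negative selection for dendritic cells. The cells of 6 hashed samples were pooled into a single 10x 3' v3 capture: a pair of leukemia-bearing samples given vehicle (leukemia vehicle 1 and 2), another pair given the drug (leukemia panobinostat 1 and 2), and the samples WT vehicle and WT panobinostat. The labels do not say whether a hashed sample is 1 mouse or a pool, so p-values measure the spread between these hashed samples, and each WT condition is a single sample.

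Chemokine receptors are receptors of the cell surface that couple to Gi proteins and steer a cell up a gradient of their ligand. CCR7 follows CCL19 and CCL21 and draws maturing dendritic cells into T cell zones. XCR1, the receptor of XCL1, is a hallmark of cross-presenting cDC1, while CCR9, the receptor of the gut and thymus chemokine CCL25, is known on plasmacytoid dendritic cells (pDC). CCR2 responds to CCL2 and related ligands and governs exit from bone marrow, CXCR4 responds to CXCL12 and retains cells in marrow, CXCR3 responds to the interferon-induced CXCL9 and CXCL10, and CX3CR1 binds CX3CL1 and marks monocyte-related cells.

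After hashtag, quality and doublet filters 18917 cells of 38717 barcodes were kept, with a median of 6082 UMIs (unique molecular identifiers) per cell and 0 barcodes occurring more than once. Leukemia vehicle 2 stood apart: its own hashtag had a median of 87 counts against 352 to 767 in the other samples, and 33.6% of its cells were erythroid-like. Another 27.0% were mast or basophil progenitor-like, against 0.114% to 3.93% in the other samples. Clusters were named from marker genes that included none of the 7 receptors, and the receptors, their ligands and the other listed homing and signalling genes were left out of the clustering. The pDC-like class held 2766 cells in 1 cluster with 13 of 13 markers raised, and the cDC1-like class 2517 cells in 1 cluster with 10 of 12 raised. The cDC2-like class held 4014 cells in 3 clusters, with 13 of 15 markers raised in at least 1 of them and 4 in all of them. Mature DC-like cells numbered 3904 in 6 clusters, with 14 of 14 markers raised in at least 1 cluster and 9 in all of them. The Siglec-H antibody tag had a median of 457 counts in pDC-like cells against 240 to 246 in the other dendritic cell-like classes, and the CD11c tag was highest in cDC1-like cells (2864) and lowest in pDC-like cells (395). Another 2096 cells (11.1%) in 5 clusters stayed unnamed. Levels are UMI counts summed over the cells of 1 class in 1 hashed sample and scaled to a total of 1000000 (CPM). These sums held between 217680 and 12369564 UMIs. Erythroid-like cells, which should lack these receptors, serve as the background for RNA free in the droplets.

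Ccr9 and Xcr1 both lie on chromosome 9. The 250 bases before the RefSeq start of Ccr9 (chr9:123766961-123767210, plus strand) and of Xcr1 (chr9:123862030-123862279, minus strand; both GRCm38.p6) are shown because these 2 genes of chromosome 9 had their highest levels in different classes. Capitals mark CANNTG, the E-box core bound by factors such as the pDC regulator TCF4, searched on both strands.
Ccr9: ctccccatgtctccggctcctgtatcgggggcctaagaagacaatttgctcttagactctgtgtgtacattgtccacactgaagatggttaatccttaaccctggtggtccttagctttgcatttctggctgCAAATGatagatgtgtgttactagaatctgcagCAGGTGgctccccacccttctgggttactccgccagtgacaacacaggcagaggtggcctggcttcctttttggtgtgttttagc
Xcr1: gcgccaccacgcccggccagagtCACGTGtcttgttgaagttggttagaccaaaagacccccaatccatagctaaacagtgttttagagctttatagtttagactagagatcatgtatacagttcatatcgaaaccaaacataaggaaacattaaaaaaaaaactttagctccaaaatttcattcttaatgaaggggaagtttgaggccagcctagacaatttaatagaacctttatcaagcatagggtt
The stretch before Ccr9 held 2 matches and that before Xcr1 held 1. CANNTG occurred in 5 of the 6 receptor genes found in the promoter table, and in 66.2% of 32851 promoters of the same length. TGANTCA, the AP-1 type motif, occurred in 0 of these 6 and in 6.75% of all promoters.

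Receptor levels differed between the classes. Between pairs of classes 34 of 40 receptor tests passed (edgeR quasi-likelihood test, adjusted p under 0.05 and a change of at least 1.5-fold), against 46.8% of all tests over all genes in the same pairs. By pair, the share of all genes called was 47.3% for pDC-like against cDC1-like, 42% for pDC-like against cDC2-like and 55.7% for pDC-like against mature DC-like cells. It was 37.5% for cDC1-like against cDC2-like, 51% for cDC1-like against mature DC-like and 47% for cDC2-like against mature DC-like cells. The classes were built from the same cells, so these tests describe how far the held-out receptors follow the classes. A receptor could enter a pair through the class where it was high. Cx3cr1, for example, was too low to be tested for panobinostat within pDC-like, cDC1-like or mature DC-like cells. Some called pairs compare low levels, such as Cx3cr1 in cDC1-like and mature DC-like cells (medians of 0.20 and 0.68 CPM). Ccr7 in pDC-like and cDC1-like cells (15.3 and 20.7 CPM) is another.

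**Figure D1:**
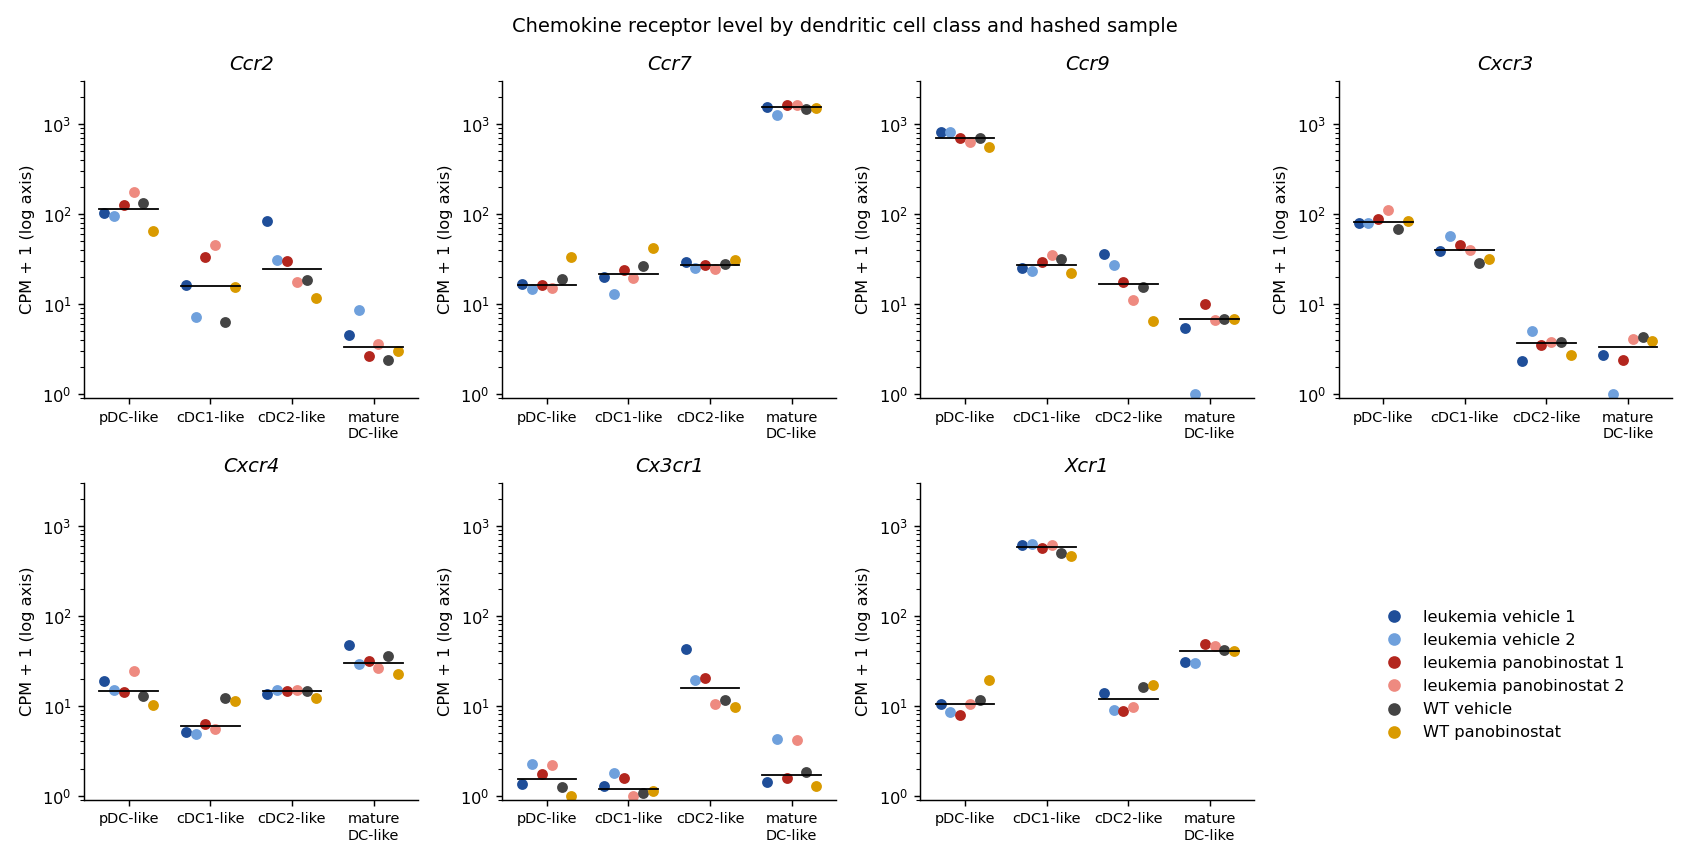
Level of each receptor (CPM + 1, log axis) in the 4 dendritic cell-like classes; each point is a hashed sample and each line the median of 6 samples. Ccr7 stands at 1266 to 1629 CPM in mature DC-like cells, Ccr9 at 560 to 819 CPM in pDC-like cells and Xcr1 at 455 to 622 CPM in cDC1-like cells, with no overlap with any other class.

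Ccr7 marked the mature DC-like cells. Its level there was 1551 and 1266 CPM in leukemia vehicle 1 and 2, 1617 and 1629 CPM in leukemia panobinostat 1 and 2, 1484 CPM in WT vehicle, then 1510 CPM in WT panobinostat. The other 3 classes lay between 11.9 and 40.7 CPM in every sample, and the range for erythroid-like cells was 5.50 to 38.3 CPM. Levels of Ccr7 outside mature DC-like cells thus overlapped with the background. A Ccr7 UMI was found in 81.2% of mature DC-like cells thinned to 2000 UMIs and in 2.13% of thinned erythroid-like cells (88.7% and 10.2% without thinning, at median depths of 4407 and 13250 UMIs). The next class in order, cDC2-like, was 58.3 times lower by the median, and the ranges of cDC2-like, cDC1-like and pDC-like cells overlapped. Ccr7 lies at chr11:99144196-99155077 on the minus strand (GRCm38, GENCODE vM21).

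Xcr1 marked the cDC1-like cells. Its level was 616, 622, 560, 602, 502 and 455 CPM in the same order of samples. Mature DC-like cells came next with 29.1 to 47.9 CPM, without overlap with either neighbour, since cDC2-like cells lay between 7.61 and 16.1 CPM. The cDC2-like and pDC-like ranges overlapped. Erythroid-like cells had 3.48 to 16.5 CPM over 5 samples and 7.70 CPM over all samples, so the levels of these 2 classes overlapped with the background. A UMI of Xcr1 was found in 62.0% of thinned cDC1-like cells and in 1.63% of thinned erythroid-like cells (96.3% and 8.18% without thinning).

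Ccr9 marked the pDC-like cells. Its level was 819, 811, 698, 629, 699 and 560 CPM, against 21.1 to 33.6 CPM in cDC1-like cells, the next class. Erythroid-like cells had 1.65 to 31.3 CPM over 5 samples, with a median of 2.75 CPM, and 2.91 CPM over all samples. The highest of these samples lay within the cDC1-like and cDC2-like ranges, while the median lay below both. A Ccr9 UMI was found in 70.9% of thinned pDC-like cells and in 0.545% of thinned erythroid-like cells (92.3% and 3.66% without thinning). The cDC2-like level ranged from 5.48 to 34.5 CPM and overlapped with both neighbours in the order. Mature DC-like cells were lowest, with 0 UMIs in leukemia vehicle 2 and up to 8.86 CPM.

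Cxcr3 was shared by pDC-like and cDC1-like cells. The pDC-like level was 78.0, 78.6, 87.7, 109, 66.8 and 82.7 CPM, and the cDC1-like level was 37.7, 56.2, 44.6, 38.9, 27.2 and 30.6 CPM. These ranges did not overlap, and the fitted pDC-like level was 1.59 times the cDC1-like level (log2 0.67 ± 0.10 SE, adjusted p = 2.2e-06). In cDC2-like and mature DC-like cells Cxcr3 did not exceed 3.97 CPM. Erythroid-like cells had 0.521 to 3.48 CPM over 5 samples and 1.06 CPM over all, so these low levels overlapped with the background.

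Ccr2 was highest in pDC-like cells but was not confined to them. The pDC-like level was 101, 94.9, 125, 175, 132 and 64.3 CPM, and the cDC2-like level was 82.8, 29.8, 29.1, 16.5, 17.3 and 10.6 CPM. Leukemia vehicle 1 in cDC2-like cells lay above WT panobinostat in pDC-like cells, so the ranges overlapped. The fitted pDC-like level was 3.83 times the cDC2-like level (log2 1.94 ± 0.24 SE, adjusted p = 1.8e-07). The cDC1-like level overlapped with that of cDC2-like cells, and mature DC-like cells had 1.36 to 7.54 CPM against 5.15 CPM in erythroid-like cells.

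Cxcr4 was highest in mature DC-like cells, at 46.4, 28.0, 30.2, 25.3, 34.2 and 21.4 CPM. The cDC2-like level was nearly even, between 11.3 and 13.9 CPM, and overlapped with the pDC-like range of 9.19 to 23.2 CPM. Erythroid-like cells had 0.825 CPM. Thinned to 2000 UMIs, 6.69% of mature DC-like cells held a Cxcr4 UMI against 0.161% of erythroid-like cells (12.8% and 1.13% without thinning).

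Cx3cr1 was found in cDC2-like cells, at 41.8, 18.5, 19.1, 9.47, 10.5 and 8.56 CPM, and did not exceed 3.23 CPM in the other 3 classes. Erythroid-like cells had 0.157 CPM. A low count set the precision here: 2.54% of thinned cDC2-like cells held a UMI, against 0.109% of thinned erythroid-like cells (6.25% and 0.215% without thinning).

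Over the 24 sums of 4 classes and 6 samples, the genes with a pattern most like each receptor's were named by Pearson's r of log2(CPM + 1) among 10126 genes. Samples of 1 class share their cell type, so these values describe the class pattern. For Ccr7 they were Socs2 (r = 0.991), a suppressor of cytokine signalling that was itself among the markers used for naming mature DC-like cells, Dok1 (0.989) and Epsti1 (0.986). Xcr1 was nearest to Pianp (0.991), 2310031A07Rik (0.982) and Plpp1 (0.981). Ccr9 was nearest to Uso1, a vesicle tethering factor (0.987), Cnpy2 (0.979) and Dgcr6 (0.978). For Cxcr3 the nearest were Gpr171 (0.964), Aldh3b1 (0.963) and Arid3b (0.959), and for Ccr2 Mecr (0.946), Ybx3 (0.940) and Smim11 (0.938). Cxcr4 and Cx3cr1 had looser neighbours, Zbtb10 (0.922), Tmcc3 (0.914) and Samsn1 (0.906) for the former and Med30 (0.917), Esco2 (0.915) and Mapk11 (0.911) for the latter. Among the receptors themselves, Ccr9 went with Cxcr3 (r = 0.838) and with Ccr2 (0.830), whereas Ccr2 and Ccr7 had opposite patterns (-0.766).

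Within the cDC2-like class, Ccr2, Cx3cr1 and Ccr9 sat in 1 of its 3 clusters. Cluster 0 (702 cells, led by Ccr1, Cd209e and Cyp7b1) had Ccr2 at 102 to 183 CPM over the 6 samples. Cluster 1 (626 cells, led by cell cycle genes such as Cep55 and Pclaf) and cluster 2 (2686 cells, led by the metalloproteinases Mmp9 and Mmp12) had at most 7.25 CPM. Cx3cr1 was at 37.0 to 92.3 CPM in cluster 0 against at most 16.1 CPM in the others, and Ccr9 at 30.3 to 97.7 CPM against at most 10.1 CPM. Cxcr4 had another pattern, with 24.2 to 35.7 CPM in cluster 1, 3.37 to 23.1 CPM in cluster 0 and 1.55 to 10.1 CPM in cluster 2. The 6 cell cycle markers summed to 2974 CPM in cluster 1, against 54.4 CPM in the cDC1-like class. The cDC2-like class thus held a cycling cluster and the cDC1-like class did not, so these classes also differed in cell cycle state. The summed pDC markers were also higher in cluster 0 (3546 CPM) than in cluster 1 (318 CPM) and cluster 2 (336 CPM), against 22165 CPM in pDC-like cells. The summed cDC2 markers were 1967, 1482 and 1859 CPM in clusters 0, 1 and 2, below the pDC marker sum in cluster 0, and 1817 CPM in pDC-like cells. In the same order the summed monocyte markers were 1495, 446 and 406 CPM. The part of pDC RNA in these receptor levels was not tested. Cx3cr1 stood at 0.51 CPM in pDC-like cells.

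**Figure D2:**
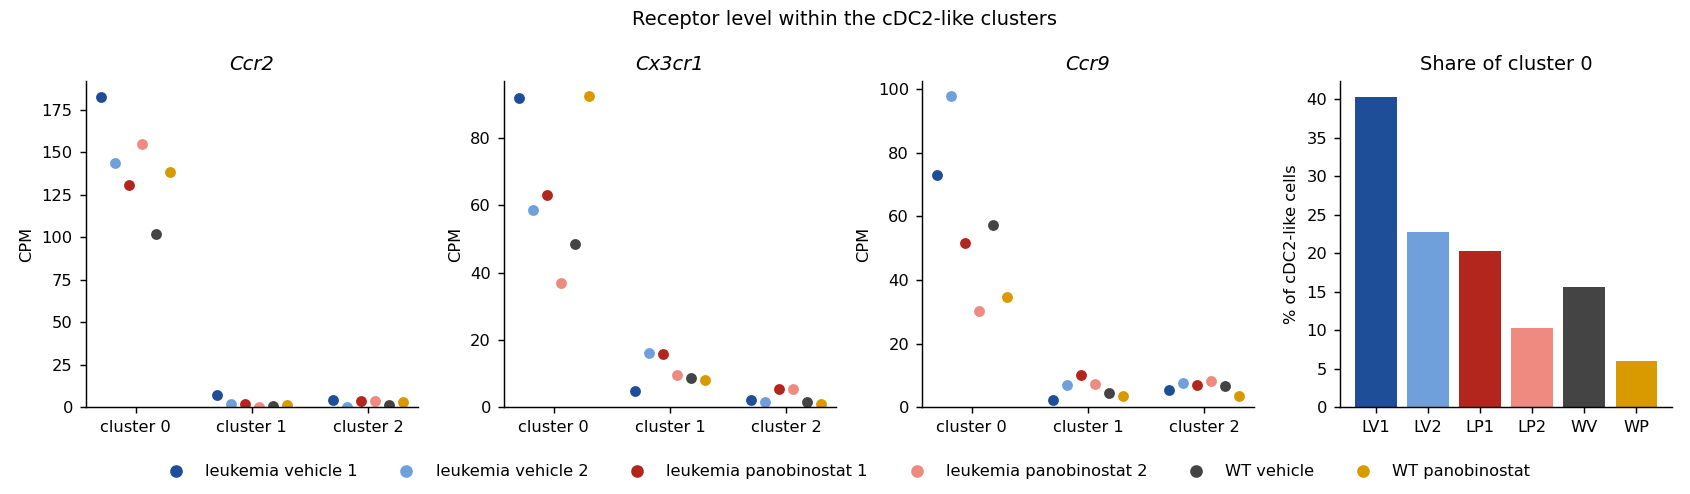
Level (CPM, linear axis) of Ccr2, Cx3cr1 and Ccr9 in the 3 cDC2-like clusters, a point per hashed sample, and the share of cDC2-like cells in cluster 0 (bars; LV and LP are leukemia vehicle and panobinostat, WV and WP the WT samples). Ccr2 is at 102 to 183 CPM in cluster 0 and at most 7.25 CPM in the others, and the share of cluster 0 runs from 6.05% to 40.4%.

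Mature DC-like cells were not uniform either. Ccr7 was at 1386 to 2167 CPM in cluster 5 (549 cells, led by Lta) and at 1649 to 2042 CPM in cluster 7 (1242 cells, led by Il12b, a subunit of interleukin 12). It was lower in cluster 17 (280 cells), at 314 to 874 CPM over 4 samples with 20 or more cells, and in cluster 21 (181 cells), at 213 to 324 CPM over 3. Xcr1 was at 54.0 to 111 CPM in cluster 7 against at most 27.1 CPM in clusters 4, 5 and 15, with no overlap. Cxcr4 was lower in cluster 7 (7.40 to 25.5 CPM) than in cluster 4 (37.8 to 72.4 CPM) and cluster 5 (35.5 to 66.8 CPM), while cluster 15, with 9.04 to 54.5 CPM, overlapped with all 3. Cluster 17 held Cxcr4 UMIs in only 1 of its 4 samples, at 2.75 CPM, and Xcr1 at 11.5 to 63.3 CPM. The summed cDC1 markers were 1812 CPM in cluster 7 and 1458 CPM in cluster 17 against 756 to 1100 CPM in the other 4 clusters, and 6198 CPM in cDC1-like cells. Their part in the Xcr1 level was not tested.

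**Figure D3:**
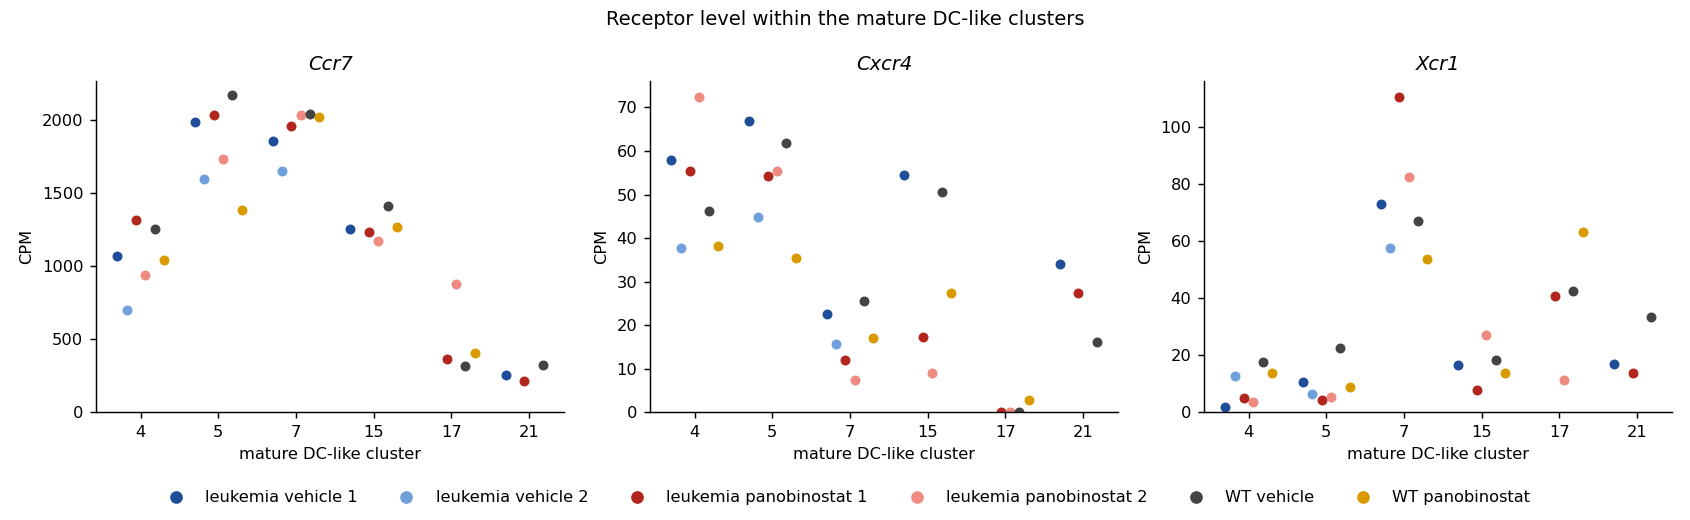
Level (CPM, linear axis) of Ccr7, Cxcr4 and Xcr1 in the 6 mature DC-like clusters, a point per hashed sample with 20 or more cells. Xcr1 is at 54.0 to 111 CPM in cluster 7 and Cxcr4 at 35.5 to 66.8 CPM in cluster 5.

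With panobinostat, Ccr2 rose in cDC1-like cells. Its level was 15.3 and 6.15 CPM in the leukemia vehicle samples, 31.8 and 44.7 CPM in the leukemia panobinostat samples, 5.25 CPM in WT vehicle and 14.4 CPM in WT panobinostat, from 16 to 115 UMIs per sample. Within leukemia-bearing samples the treated pair lay above the vehicle pair, and in WT the single treated sample lay above the single vehicle sample; across both, WT panobinostat lay below leukemia vehicle 1. Erythroid-like cells had 2.13 to 6.96 CPM of Ccr2 over 5 samples, so leukemia vehicle 2 and WT vehicle lay within the background, and the other 4 samples above it. The fitted change, with disease state in the model, was 3.11-fold (log2 1.64 ± 0.19 SE, edgeR quasi-likelihood test, adjusted p = 2.7e-05). Of all genes tested in this class, 1.32% were called, 1.06% up and 0.26% down, against 2 of the 6 receptors tested, both up. The call held in 17 of 18 alternatives (1 of which leaves this class as it is), with a log2 change of 1.20 to 1.88, and was lost when every cell was thinned to 2000 UMIs (log2 1.20, adjusted p = 0.14).

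The same direction appeared in cells left out of the cDC1-like class. The unnamed cluster 10 (565 cells) had 9 raised cDC1 markers and was led by pancreatic enzyme genes. Its 6 cell cycle markers summed to 1501 CPM, against 54.4 CPM in the cDC1-like class. Ccr2 was there at 7.79 and 10.2 CPM under vehicle and 21.2 and 24.8 CPM under panobinostat in leukemia, and at 3.46 and 9.19 CPM in WT. It rose there by log2 1.41 ± 0.29 (SE; edgeR, adjusted p = 0.0090), where 0.381% of all genes were called. In the unnamed cluster 13 (923 cells) Ccr2 had 29 UMIs in all and was not tested. These 2 unnamed clusters held 68 and 40 cells in leukemia vehicle 1, 47 and 28 in leukemia vehicle 2, 81 and 58 in leukemia panobinostat 1, and 68 and 96 in leukemia panobinostat 2. WT vehicle had 124 and 326 cells in them and WT panobinostat 177 and 375, beside 1072 and 554 cells in the cDC1-like class. The summed pDC markers in cDC1-like cells were 218 and 240 CPM under vehicle and 259 and 297 CPM under panobinostat in leukemia, and 212 and 220 CPM in WT, with all 13 detected. In pDC-like cells themselves these markers summed to 22165 CPM and Ccr2 stood at 117 CPM. The part of pDC RNA in the Ccr2 values was not tested. The 9 monocyte markers summed to 303 to 369 CPM, with 303 and 369 in leukemia vehicle. The 8 macrophage markers summed to 37.5 and 25 CPM under vehicle and 47.2 and 81.2 CPM under panobinostat in leukemia, and to 57.3 and 67.8 CPM in WT, higher in each treated sample than in the vehicle samples of its disease state. Macrophage-like cells had Ccr2 at 37.7 CPM over all samples. The part of macrophage RNA in the Ccr2 values was not tested.

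Ccr7 in cDC1-like cells was called higher with panobinostat in the same fit (log2 0.59 ± 0.13 SE, edgeR adjusted p = 0.021), but in only 6 of 18 alternatives. Its level was 18.9, 11.9, 22.6, 18.6, 25.2 and 40.7 CPM, within or just above the background range. The treated and vehicle ranges of the leukemia samples overlapped, and the change lost its call without WT panobinostat or WT vehicle (log2 0.43, adjusted p = 0.40 each), without leukemia panobinostat 1 (adjusted p = 0.081) and without leukemia vehicle 2 (adjusted p = 0.058). The 14 mature DC markers in cDC1-like cells summed to 464, 356, 760, 789, 1054 and 985 CPM in the same order, against 7941 CPM in mature DC-like cells. Their part in the Ccr7 values was not tested. Ccr9, Cxcr3, Cxcr4 and Xcr1 did not pass the test in this class, and Cx3cr1 was too low to be tested.

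**Figure D4:**
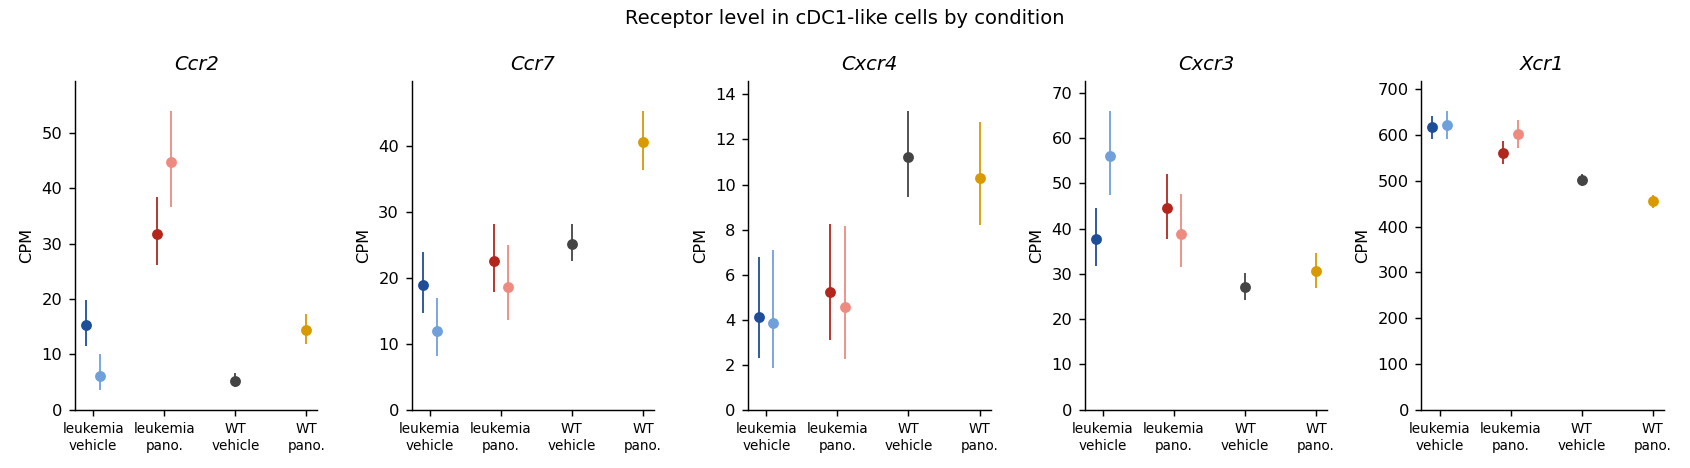
Level (CPM, linear axis from 0) of 5 receptors in cDC1-like cells by condition, a point per hashed sample with its exact 95% Poisson interval, which covers counting error only. Ccr2 is at 31.8 and 44.7 CPM in leukemia panobinostat against 15.3 and 6.15 CPM in leukemia vehicle, and Cxcr4 is at 3.85 to 5.21 CPM in the leukemia-bearing samples against 10.3 and 11.2 CPM in WT.

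In the other 3 classes no receptor passed the edgeR test for panobinostat. The calls over all genes were also few, at 0.163%, 0.0412% and 0.374% of genes in the pDC-like, cDC2-like and mature DC-like class. At an unadjusted p under 0.05 there were 3 receptors in each of these classes, beside 6.47%, 9.22% and 11.6% of all genes, and DESeq2 called 0 receptors in each. In pDC-like cells the log2 change of Ccr9 was -0.27 ± 0.06 (SE, adjusted p = 0.14), Cxcr3 had 0.29 ± 0.11 (adjusted p = 0.62) and Ccr2 0.36 ± 0.15 (adjusted p = 0.69). In mature DC-like cells Ccr7 had 0.23 ± 0.07 (adjusted p = 0.17), Xcr1 0.43 ± 0.15 (0.25) and Cxcr4 -0.48 ± 0.16 (0.23). A self-test with simulated counts recovered 77.9%, 75.8% and 73.8% of the genes changed 2-fold in the pDC-like, cDC2-like and mature DC-like class. It also called 9, 22 and 13 unchanged genes. The changed genes were drawn at random from the genes tested, so the recovery of receptors with low counts was not measured. The simulated counts held no difference between disease states.

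In cDC2-like cells Ccr2 (log2 -1.12 ± 0.32 SE, adjusted p = 0.27), Ccr9 (-1.15 ± 0.22, adjusted p = 0.094) and Cx3cr1 (-0.82 ± 0.32, adjusted p = 0.45) were the receptors with an unadjusted p under 0.05, and none was called by edgeR after adjustment. Of the cDC2-like cells, cluster 0, in which these receptors sit, held 40.4% and 22.7% under vehicle and 20.3% and 10.3% under panobinostat in the leukemia-bearing samples. In WT it held 15.6% under vehicle and 6.05% under panobinostat. Its share was lower in each treated sample than in any vehicle sample of the same disease state. Fitted within cluster 0 alone, the log2 change was -0.08 ± 0.18 for Ccr2, -0.19 ± 0.25 for Cx3cr1 and -0.77 ± 0.24 for Ccr9, with adjusted p of 0.996, 0.996 and 0.31 (edgeR) and 0.164% of genes called. Without leukemia vehicle 2 the class fit called Ccr2 (-1.49, adjusted p = 0.019) and Ccr9 (-1.29, adjusted p = 0.023), and without the doublet filter the Ccr2 value was 1.47 (adjusted p = 0.53).

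Between leukemia-bearing and WT samples, 5 of 6 tested receptors were called in cDC1-like cells, against 12.1% of all genes. Of these receptors 3 were higher and 2 lower, beside 5.06% and 7.08% of all genes. Cxcr4 was lower in leukemia: 4.10, 3.85, 5.21 and 4.56 CPM in the 4 leukemia-bearing samples and 11.2 and 10.3 CPM in WT, from 10 to 139 UMIs per sample. The groups did not overlap, the change was 2.62-fold down (log2 -1.39 ± 0.22 SE, edgeR adjusted p = 8.3e-05), and it was called in the 15 alternatives that tested it. Thinned to 2000 UMIs per cell, Cxcr4 was too low in this class to be tested. Ccr2 was higher (log2 1.18 ± 0.20, adjusted p = 0.00019; 15 of 16 alternatives). Its leukemia-bearing range, 6.15 to 44.7 CPM, overlapped with the WT values of 5.25 and 14.4 CPM. Within vehicle and within panobinostat alike, each leukemia-bearing sample lay above the WT sample.

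Ccr7 was lower in leukemia (log2 -0.93 ± 0.13, edgeR adjusted p = 3.1e-05), with 11.9 to 22.6 CPM against 25.2 and 40.7 CPM in WT. These levels lie near the background, and the mature DC markers given above were likewise lower in every leukemia-bearing sample than in WT; the call was made in 12 of 16 alternatives. Cxcr3 was higher in every leukemia-bearing sample than in WT (log2 0.51 ± 0.13, adjusted p = 0.0091), and lost the call without leukemia vehicle 2 (adjusted p = 0.058) or without WT vehicle (0.30). Xcr1 was higher by log2 0.22 ± 0.06 (adjusted p = 0.024), a small difference called in 7 of 16 alternatives. It lost the call without WT panobinostat, leukemia panobinostat 2, leukemia vehicle 1 or leukemia vehicle 2, with adjusted p of 0.11, 0.080, 0.080 and 0.067.

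No receptor differed between leukemia-bearing and WT samples in pDC-like, cDC2-like or mature DC-like cells by edgeR, where 0.959%, 0.206% and 1.40% of all genes were called. At an unadjusted p under 0.05 there were 1, 4 and 0 receptors, beside 7.67%, 9.25% and 11.1% of all genes, and DESeq2 called 0 receptors in each. In cDC2-like cells the largest values were Ccr2 1.54 ± 0.35 (adjusted p = 0.13), Cx3cr1 1.28 ± 0.34 (0.19) and Ccr9 1.1 ± 0.22 (0.094), and without leukemia vehicle 2 all 3 were called (adjusted p = 0.0053, 0.036 and 0.026). Over all alternatives each of the 3 was called in only 2. The log2 change of Ccr2 ran from -0.33 to 1.90 and reversed in 1 of 15 alternatives. For Cx3cr1 it ran from 0.75 to 1.73, and for Ccr9 from 0.043 to 1.28. The share of cDC2-like cells in cluster 0, given above, was higher in each leukemia-bearing sample than in the WT sample of the same treatment.

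Whether the panobinostat change depended on disease state was tested as an interaction, and no receptor passed in any class by edgeR or DESeq2. Taking pDC-like, cDC1-like, cDC2-like and mature DC-like cells in turn, 1, 1, 0 and 1 receptors had an unadjusted p under 0.05, beside 6.35%, 7.4%, 4.9% and 6.15% of all genes. After adjustment 0.16%, 0.459%, 0% and 0.303% of all genes were called. Ccr9 in cDC1-like cells had the smallest adjusted p, with an interaction of log2 0.96 ± 0.24 (edgeR adjusted p = 0.067), called in 2 of 14 alternatives. Next was Ccr2 in pDC-like cells, whose change was larger in leukemia-bearing than in WT samples by log2 1.60 ± 0.38 (adjusted p = 0.11). This value rests on WT panobinostat, with 14 UMIs of Ccr2 in 41 cells, and could not be fitted without it. It was called in 6 of 14 alternatives, among them those without each leukemia-bearing sample in turn (adjusted p = 3.5e-05 to 0.024), while DESeq2 gave an adjusted p of 0.999986. Without WT panobinostat, the panobinostat change of Ccr2 in pDC-like cells itself was called (adjusted p = 0.022).

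Few other genes of the pathway passed the test with panobinostat. Of 4 ligands tested in cDC1-like cells, 2 rose with panobinostat: Cxcl9, a ligand of CXCR3, by log2 0.68 ± 0.12 (edgeR adjusted p = 0.0017) and Cxcl10, another, by 0.64 ± 0.15 (0.029). In leukemia Cxcl9 was at 868 and 522 CPM under vehicle and 1124 and 1354 CPM under panobinostat, and in WT it was at 530 and 657 CPM. Of 5 other chemokine receptors tested in cDC2-like cells 1 rose: Ccrl2, a chemerin-binding receptor, by 0.89 ± 0.13 (edgeR adjusted p = 0.043). Cd44, the hyaluronan receptor, rose in mature DC-like cells (0.60 ± 0.10, edgeR adjusted p = 0.019), 1 of 15 homing genes tested. Cxcl9 kept its call without each sample in turn, but DESeq2 gave it an adjusted p of 0.74, and Cxcl10 one of 0.999. Cxcl10 lost the call without leukemia panobinostat 1 or leukemia vehicle 2 (edgeR adjusted p = 0.22 and 0.064). Ccrl2 lost it without leukemia panobinostat 1, leukemia panobinostat 2 or leukemia vehicle 1 (0.051, 0.26 and 0.16), and Cd44 without WT panobinostat, WT vehicle, leukemia panobinostat 2 or leukemia vehicle 1 (0.16, 0.16, 0.25 and 0.11). None of the 29 to 32 receptor signalling genes tested per class passed with panobinostat. Of all genes, 0.163%, 1.32%, 0.0412% and 0.374% were called with panobinostat in the pDC-like, cDC1-like, cDC2-like and mature DC-like class.

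Xcl1, the ligand of XCR1, was called in pDC-like cells with panobinostat (log2 5.85 ± 0.58, edgeR adjusted p = 3.2e-06). In leukemia its level was 0.668 and 0.624 CPM under vehicle and 9.39 and 2.32 CPM under panobinostat, and in WT it was 0.944 and 138 CPM. The vehicle levels and that of leukemia panobinostat 2 each rest on only a few UMIs. WT panobinostat, with its 41 cells, was by far the highest. Without it the change was log2 3.43 (edgeR adjusted p = 0.019), without WT vehicle it was 3.44 (0.0076), and without leukemia panobinostat 1 it was not tested. DESeq2 gave log2 4.63 with an adjusted p of 0.19. In the pDC-like cells of WT panobinostat the 7 NK cell markers summed to 0 CPM, while the 6 plasma cell markers summed to 1617 CPM against 388 to 466 CPM in the other samples. Their part in the Xcl1 level was not tested. Xcl1 was also called lower in leukemia-bearing than in WT samples in these cells (log2 -3.73 ± 0.54, edgeR adjusted p = 0.00026), and lost that call without WT panobinostat (-0.52, adjusted p = 0.98).

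Between leukemia-bearing and WT samples, cDC1-like cells had 2 of 4 ligands up (Cxcl9 0.54 ± 0.13 and Cxcl10 0.62 ± 0.15), 2 of 16 homing genes up and 3 down, and 1 of 32 signalling genes up and 2 down. Of all genes tested in this class, 5.06% were called up and 7.08% down. The signalling genes were thus called no more often than all genes. Itgb7, the beta chain of the gut-homing integrin, rose by 0.72 ± 0.10 (edgeR adjusted p = 1.2e-05), while Cd44 fell by 0.67 (3.7e-06). Itga4, the alpha chain of the same integrin, went the other way and fell by 0.38 ± 0.07 (edgeR adjusted p = 0.00052). Itgax fell by 0.44 ± 0.08 (0.00050) and Itgb2 rose by 0.29 ± 0.08 (0.016), though DESeq2 did not call Itgb2 (adjusted p = 0.083). Rgs1, which shortens signals from Gi-coupled receptors, fell in cDC1-like cells (-0.61 ± 0.09, edgeR adjusted p = 2.5e-05) and rose in mature DC-like cells (0.46 ± 0.07, adjusted p = 0.0017). The difference between classes was not tested. In cDC1-like cells Rgs2 also fell (-0.41 ± 0.07, edgeR adjusted p = 0.00018) and Rgs14 rose (0.82 ± 0.19, 0.0048). DESeq2 did not call Rgs14 (adjusted p = 0.082). In pDC-like cells Gpr183, the oxysterol receptor, fell by 0.60 (edgeR adjusted p = 0.0046) and Cxcl9 by 1.07 (0.0044); both lost the call without WT vehicle (0.53 and 0.97), and Cxcl9 also without leukemia vehicle 1 (0.49). In cDC1-like cells Cxcl9 lost it without WT panobinostat or leukemia vehicle 1 (0.19 and 0.078), and Cxcl10 without these or leukemia panobinostat 1 (0.059, 0.17 and 0.065). DESeq2 called none of these 4, with adjusted p of 0.51 for Cxcl9 and 0.67 for Cxcl10 in cDC1-like cells, and 0.075 for Gpr183 and 0.999981 for Cxcl9 in pDC-like cells. Cxcl9 stood at 12.4 to 28.8 CPM in pDC-like cells, against 522 to 1354 CPM in cDC1-like cells. The part of cDC1 RNA in the pDC-like values of Cxcl9 was not tested. The median log2 change of each of these lists in cDC1-like cells was 0.31 for ligands, 0.04 for homing genes and -0.04 for signalling genes, beside 0.01 for all genes tested.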

How the data were processed

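Of 1 capture, 3 libraries were submitted as samples: transcripts, hashtags and antibody tags. The authors deposited UMI counts per feature and barcode, whole numbers per the file headers and values. The submitters' processing notes list Seurat 3.1.0, Cell Ranger 3.1.0 and the build names mm10 and GRCm38 without their roles. Each cell's condition was read from the hashtag names (D5W as vehicle, LBH as panobinostat).

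Tag counts past the 99% quantile of a negative binomial fit to the tag's lowest cluster were positive, and 22335 barcodes (57.7%) had exactly 1. Cells needed 500 genes, at most 10% mitochondrial UMIs and a simulated-doublet score under 0.35 (10.2% of single-tag cells removed). Counts were log-scaled, and 2000 variable genes, 30 principal components, 15 neighbours and Leiden resolution 1 gave 26 clusters (Python 3.11.15, scanpy 1.11.5, igraph 0.11.9). A cluster took the name with most markers raised (log2 fold of 1 and 20 CPM, at least 3 markers), unless leading genes, marker means or low UMIs went against it.

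UMIs were summed per class and hashed sample (20 or more cells) and tested with edgeR 4.0.16 (R 4.3.3): TMM, filterByExpr, quasi-likelihood test, Benjamini-Hochberg over all genes, threshold 0.05. The model held disease and treatment, their interaction, or, between classes, the hashed sample as a block. DESeq2 1.42.0 was an alternative. On simulated data 0 changed genes were called in the wrong direction, and 8 to 22 unchanged genes were called per run. Share and Poisson intervals are exact at 95% and cover counting error only. The receptors, lists and tests were chosen with earlier results of these data known. Named genes are all 7 receptors, the 3 genes most like each (200 or more UMIs), and from each other list up to 4 genes per class and direction by smallest adjusted p. Naming rules for clusters and the doublet threshold were set after the data were seen. Results for 1 other listed gene are not reported here.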

Additional observations from a re-analysis of the deposited data

Results flagged for a closer look

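Clusters outside the 4 dendritic cell-like classes entered no comparison of classes. Those of 100 or more cells in which a receptor had 20 or more UMIs and at least 10 times its level in erythroid-like cells are given here, with exact Poisson intervals.

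The unnamed cluster 8 (292 cells, led by Clec4a3 and Csf1r) had Ccr2 at 158 CPM (95% interval 141 to 177), Cx3cr1 at 45 CPM (95% interval 36 to 55.5) and Cxcr4 at 29.5 CPM (95% interval 22.3 to 38.2). The unnamed clusters 10 and 13, nearest to cDC1 by markers, had Xcr1 at 450 CPM (95% interval 438 to 462) and 226 CPM (95% interval 215 to 238). Their Cxcr3 levels were 30.2 CPM (95% interval 27.1 to 33.5) and 25.1 CPM (95% interval 21.4 to 29.4), and cluster 10 had Cxcr4 at 13.4 CPM (95% interval 11.4 to 15.7). The unnamed cluster 23 (124 cells), nearest to pDC and led by interferon-induced genes such as Ifi44, had Ccr9 at 613 CPM (95% interval 558 to 672), Ccr2 at 64.7 CPM (95% interval 47.7 to 85.7) and Cxcr3 at 45.8 CPM (95% interval 31.7 to 64).

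Macrophage-like cells (184) had Cx3cr1 at 241 CPM (95% interval 211 to 274), Xcr1 at 126 CPM (95% interval 104 to 150) and Cxcr4 at 24.1 CPM (95% interval 15.3 to 36.1); 173 of them came from the WT samples. NK cell-like cells (154) had Ccr9 at 65.1 CPM (95% interval 51.1 to 81.7), Cxcr3 at 30.8 CPM (95% interval 21.4 to 42.8) and Cxcr4 at 27.3 CPM (95% interval 18.5 to 38.7). B cell-like cells (306) had Cxcr4 at 19.2 CPM (95% interval 13.4 to 26.5) and Cxcr3 at 11.2 CPM (95% interval 6.92 to 17.1).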

How the results depend on the processing

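The highest class of each of the 7 receptors was the same under all 5 alternatives that rebuild the classes, and the number of class differences called stayed between 31 and 37 (32 to 34 leaving out each sample). For panobinostat in cDC1-like cells the count fell from 2 receptors to 1 under DESeq2, Leiden resolution 0.5, the ratio hashtag call, leukemia samples only, listed genes allowed in clustering, no doublet filter and unnamed clusters joined, and to 0 when thinned to 2000 UMIs; leaving out each sample it was 1 to 2. In the other classes the count of 0 became 3 in cDC2-like, 1 in mature DC-like and 1 in pDC-like cells with no filter on low counts; leaving out each sample it was 0 to 2, 0 and 0 to 1. For leukemia-bearing against WT in cDC1-like cells the count of 5 became 3 under DESeq2, listed genes in clustering and no doublet filter, and 0 when thinned; leaving out each sample it was 3 to 5. The count of 0 became 1 without the doublet filter in pDC-like, cDC2-like and mature DC-like cells, and 4 in cDC2-like cells with no low-count filter; leaving out each sample it was 0 to 3 in cDC2-like and 0 in the other 2. The interaction count of 0 became 1 with the ratio hashtag call and 2 with no low-count filter; leaving out each leukemia-bearing sample it was 1 to 2, and without either WT sample it could not be fitted. Where a leave-out left 1 sample in an arm, that sample was assumed to vary like the others. The causes were not tested. Joining unnamed clusters, or using the largest cluster of each class, was chosen after seeing the data.

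Genes called over all genes with panobinostat in cDC1-like cells were 122, against 56 by DESeq2, 15 thinned, 220 with no low-count filter, 79 with listed genes in clustering, 338 at Leiden resolution 0.5, 398 without the doublet filter and 411 with unnamed clusters joined. In cDC2-like cells they were 4, against 18 by DESeq2, 264 with no low-count filter and 101 with the replicate block. The panobinostat counts ran from 0 to 276 in mature DC-like cells (35 in the main analysis) and from 2 to 51 in pDC-like cells (15). For leukemia-bearing against WT they ran from 259 to 1247 in cDC1-like (1119), 2 to 283 in cDC2-like (20), 37 to 318 in mature DC-like (131) and 17 to 146 in pDC-like cells (88). For the interaction, over the 4 classes, they ran from 6 to 283 (90). Numbers 1 and 2 occur only in leukemia-bearing samples; same-numbered samples had correlations of deviations of 0.0094 to 0.17 over the 4 classes, with 2 pairs, so they are not shown to be paired. With the replicate block the count of receptors was 2 in cDC1-like and 2 in cDC2-like cells (Ccr2 and Ccr9, adjusted p = 0.0042 each) and 0 in the other classes.

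Depth limits Cx3cr1 and Cxcr4 most, with 394 and 1439 UMIs in the 4 classes.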
